A study of Cervus nippon with 12 samples.

Results

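The DLK1-DIO3 region is an imprinted stretch of the mammalian genome whose copies behave differently according to the parent they came from. The protein-coding genes DLK1, RTL1 and DIO3 are transcribed from the paternal copy, while the maternal copy gives long noncoding RNAs, MEG3 and its neighbours, from which a large group of miRNAs is cut. These miRNAs are best known from brain, placenta, embryonic tissue and progenitor cells, and their level usually falls in differentiated adult tissue. Along the region they form a smaller group on the MEG3 side, which includes miR-127, an antisense regulator of RTL1, and a longer row of hairpins that starts with miR-379 and miR-411 and runs to miR-410. The members described here are all listed cattle (bta-) names that carry 1 of 39 numbers fixed for this locus, with any letter or arm suffix. The rule gave 46 of the 545 listed names, covering 35 of the 39 numbers, with 8 names on the miR-127 side and 38 in the miR-379 row. The names miR-412, miR-541, miR-544 and miR-1193 were not analysed here.

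Small RNA was sequenced from wild-type sika deer antler cells in 12 libraries, 3 in each of 4 groups. Reserve mesenchyme cells (RMCs), the progenitors of the growing antler tip, were cultured in DMEM with serum and then kept as pellets in chondrogenic medium, and were taken before induction (CP_0) or after 7 days (CP_7) or 14 days (CP_14) of it. Chondrocytes (CC) from antler cartilage were the fourth group and stand for the differentiated cell. The antlers came from male deer aged 3 years. No source used here ties a library to an animal, so the p-values below measure the spread between these libraries, which may in part be technical. Each value is given in RPM, the reads on a miRNA for every 1000000 reads on listed miRNAs, and the reads behind it could be recovered as whole numbers. The libraries held 2973442, 4097304 and 3636580 reads in CP_0, 769655, 1032029 and 539455 in CP_7, 2791559, 3024668 and 3864900 in CP_14, compared with 10256572, 9714090 and 9970138 in CC. A miRNA with 0 reads could therefore be present at up to 5.56 RPM in the shallowest CP_7 library and 0.292 RPM in the deepest CC library, taking 3 reads as the floor. Intervals and floors cover counting error only, since reads that carry no molecular identifier may be copies of 1 molecule.

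Several libraries stood apart from their group. In CP_7 replicate 1, 11 names with at least 20 reads were more than 3-fold above both other CP_7 libraries once 2 RPM had been added to each value, and 5 of the 11 were DLK1-DIO3 names, namely miR-370, miR-433, miR-381, miR-409b and miR-543. The other 6 were miR-206, miR-9-5p, miR-1298, miR-128, miR-139 and miR-129. Among the neuronal marker list, which holds 3 names of miR-124 and miR-9, the summed level was 1901 RPM in this library against 123 and 159 RPM in the other CP_7 libraries. The same sum was 102, 79.6 and 83.9 RPM in CP_0, 162, 173 and 177 RPM in CP_14, against 52.7, 59.9 and 63.4 RPM in CC. Most of it was miR-9-5p, with 1430 reads in CP_7 replicate 1, whereas miR-124a, the defining neuronal miRNA, had 9 reads there, 0 in the other CP_7 libraries and at most 2 in any other library. Whether the neuronal list has a part in the DLK1-DIO3 values of this library was not tested, so several CP_7 results below are also given without it.

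CP_0 replicate 3 had 7 names above both of its fellow libraries, CP_7 replicate 3 had 5 and CP_14 replicate 1 had miR-206 alone (148 reads), none of them a DLK1-DIO3 name. The CP_0 library was high in the red-cell miRNAs miR-486 (8312 reads) and miR-451 (6933 reads), and CP_7 replicate 3 in the endothelial miR-126-3p (1658 reads). The blood list of 6 names summed to 16.1, 14.4 and 4220 RPM in CP_0, to 23.4, 159.9 and 59.3 RPM in CP_7, to 5194, 4543 and 3504 RPM in CP_14, compared with 1466, 1466 and 1393 RPM in CC. It was thus high in every CP_14 and CC library and in 1 of the CP_0 libraries. The muscle list of 5 names, led by miR-1, was highest in CP_7, at 4948, 6637 and 4540 RPM, against 537 to 684 RPM in CP_0, 1687 to 1757 RPM in CP_14, with CC at 721 to 754 RPM. The epithelial list of 6 names was at most 46.2 RPM in any library, and the endothelial list of 2 names at most 83.6 RPM outside CP_7, where it was 188, 322.7 and 3083 RPM. Their part in the results below was not tested. As for cartilage, miR-140, which is tied to the chondrocyte programme, lay between 8831 and 11013 RPM in all 12 libraries with the groups overlapping. Scaled with the TMM factors described below, it was at 16313 to 17758 in CC, 10312 to 11140 in CP_0, 9598 to 9987 in CP_14 and 4761 to 5376 in CP_7, so CC was apart on that scale only. Another cartilage marker, miR-455-5p, ran from 185 to 220 RPM in CP_0, 480 to 514 RPM in CP_7, 217 to 231 RPM in CP_14, against 313 to 335 RPM in CC, so that CP_7 was highest, whereas with those factors CC was highest, at 515 to 583 against 213 to 305 elsewhere. The other arm, miR-455-3p, was highest in CP_7 on both scales, at 133.5 to 140.5 RPM against 20.9 to 51.9 RPM elsewhere, and at 63.8 to 83.4 against 22.5 to 57.5 with those factors.

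The cluster took a small share of the reads, and that share was lowest in chondrocytes. Summed over the 46 names it was 366, 308 and 309.6 RPM in CP_0, 1846, 370.1 and 467 RPM in CP_7, 284, 281 and 237 RPM in CP_14, compared with 72.8, 79.1 and 91.2 RPM in CC. Every CC library was below every other library, and CP_7 replicate 1 was far above all others. The exact (Clopper-Pearson) 95% interval was 1752 to 1945 RPM in CP_7 replicate 1, 411.2 to 529 RPM in CP_7 replicate 3 and 85.3 to 97.3 RPM in the highest CC library, so counting error does not bridge these gaps. By group the share was 328 RPM ± 33.0 (SD, n = 3) in CP_0, 895 RPM ± 826 in CP_7, 267 RPM ± 26.5 in CP_14, against 81.0 RPM ± 9.33 in CC. The mean of CP_7 fell to 419 RPM without replicate 1. In reads, the cluster held 1088, 1261 and 1126 in CP_0, between 252 and 1421 in CP_7, 793, 850 and 915 in CP_14, against 747, 768 and 909 in CC, although the CC libraries were the deepest.

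A share of reads also moves when a single abundant miRNA takes more or less of the library. Of all reads, miR-21-5p held between 72.9% and 76.9% in CC and between 21.4% and 24.3% in CP_7. Levels were therefore also scaled with TMM factors, which align the bulk of the miRNAs between libraries, and these are called normalized RPM below. On that scale the summed level was 394, 364 and 362 in CP_0, 933, 219.7 and 223.3 in CP_7, 278, 274 and 253 in CP_14, compared with 130.2, 132 and 140.2 in CC. The order of CP_0, CP_14 and CC held without overlap on both scales, whereas CP_7 lay on different sides of CP_0. As a share of reads all 3 CP_7 libraries were above all 3 CP_0 libraries, though the lowest of them and the highest CP_0 library were within counting error of each other. With miR-21-5p dropped from the total, CP_7 replicates 2 and 3, at 486.7 and 594 RPM, were below all CP_0 libraries, at 764 to 909 RPM, and replicate 1, at 2440 RPM, was above them. In normalized RPM, replicates 2 and 3 were below CP_0 and replicate 1 above. The log2 ratio of CP_7 to CP_0 was accordingly 0.30 in normalized RPM and -0.75 without CP_7 replicate 1, and 1.45 and 0.35 when only library size was used, the last an alternative chosen after seeing the data. From CP_7 to CP_14 it was -0.77 in normalized RPM and 0.28 without CP_7 replicate 1. With library size only the same ratio was -1.74, and -0.65 without CP_7 replicate 1, the latter again chosen after seeing the data. With miR-370 left out of the sum, the ratio of CP_7 to CP_0 was -0.30 and that of CP_14 to CP_7 -0.17. For CC it was -1.48 against CP_0 and -1.0 against CP_14 in normalized RPM, and -2.02 and -1.72 with library size only. No test was run on the sum. In pooled RNA of this kind, fewer cells of a type and less RNA per cell cannot be told apart.

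**Figure D1:**
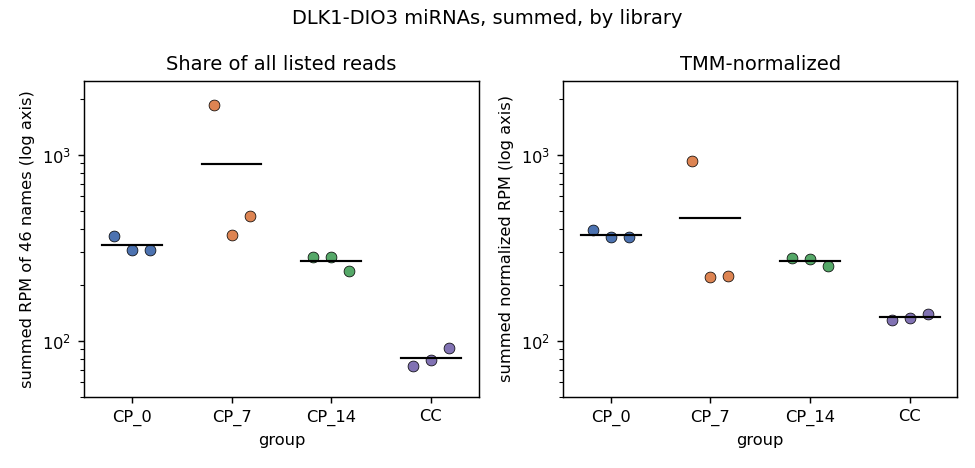
Summed level of the 46 DLK1-DIO3 names in each library (points, in the order of replicates 1 to 3) and the group mean (line), as a share of all listed reads in RPM on the left and in TMM-normalized RPM on the right, on log axes. The CC libraries lie lowest in both panels, at 72.8 to 91.2 RPM and 130.2 to 140.2 normalized RPM, and CP_7 replicate 1 lies highest, at 1846 RPM and 933 normalized RPM.

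Few of the 46 names carried most of these reads. Over all libraries the cluster had 10512 reads, of which miR-411a had 2645, miR-379 2590 and miR-127 2125, and these 3 held 80.8% ± 1.65 (SD, n = 3) of the cluster's reads in CP_0, 44.6% ± 19.9 in CP_7, 81.1% ± 2.36 in CP_14, against 75.0% ± 1.03 in CC. By mean RPM over the 12 libraries the highest member was miR-370, at rank 111 of 545 names, followed by miR-127 at 112, miR-379 at 117 and miR-411a at 128, but the place of miR-370 rested on CP_7 replicate 1. Next came miR-381, miR-409b, miR-382 and miR-493, at ranks 181 to 207, and without CP_7 replicate 1 their order was reversed, at means of 7.07 RPM for miR-493, 7.02 for miR-382, 6.46 for miR-409b and 4.88 for miR-381. A read was present in every library for 18 names, and 19 names reached 10 reads in at least 1 library. The remaining 27 stayed under 10 reads in all 12 libraries, 11 of them with 3 reads or fewer in all. Tests were possible for 19 names in at least 1 comparison, and the 27 names tested in none held 3.70% of the cluster's reads. Of the 27 untested names 25 are among those with under 10 reads throughout, since miR-654 and miR-656 could be tested and miR-411b and miR-433 could not. The untested miR-433, which sits beside miR-127, had the most reads in 1 library, 36 in CP_7 replicate 1, against at most 4 elsewhere. As a group the 27 untested names stood at 9.50 RPM ± 1.41 (SD, n = 3) in CP_0, 44.8 RPM ± 36.6 in CP_7, 8.11 RPM ± 1.62 in CP_14, compared with 3.45 RPM ± 0.560 in CC, and the mean of CP_7 was 23.7 RPM without replicate 1.

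On the miR-127 side, miR-127 was at 97.5, 74.1 and 82.8 normalized RPM in CP_0, 151, 58.7 and 61.1 in CP_7, 67.3, 62.0 and 57.0 in CP_14, against 19.7, 17.4 and 21 in CC. It was lowest in all 3 CC libraries, and in CP_7 replicate 1 it was higher than in any other library. For miR-370 the normalized RPM values were 4.71, 6.63 and 2.25 in CP_0, 466, 1.73 and 11.5 in CP_7, 1.75, 2.26 and 4.43 in CP_14, compared with 1.74, 0.860 and 1.85 in CC. The value of 466 stems from 709 reads in CP_7 replicate 1, where miR-370 alone made up 49.9% of the cluster, against 3 and 13 reads in the other CP_7 libraries. The third abundant member of this side, miR-493, stood at 14.9, 9.51 and 9.31 normalized RPM in CP_0, 16.4, 6.33 and 6.20 in CP_7, 2.80, 9.69 and 4.71 in CP_14, against 4.18, 3.27 and 4.32 in CC. Its CP_0 and CC libraries did not overlap. Those of CP_7 were all above CC and overlapped CP_0, while those of CP_14 overlapped both CP_0 and CC.

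In the miR-379 row, miR-379, whose hairpin opens it, was at 115, 109 and 105 normalized RPM in CP_0, 36.1, 40.3 and 45.2 in CP_7, 91.1, 88.2 and 70.6 in CP_14, compared with 31.9, 33.2 and 35.3 in CC. Its neighbour miR-411a was at 104, 106 and 111 normalized RPM in CP_0, 15.1, 21.9 and 21.3 in CP_7, 68.7, 77.8 and 71.1 in CP_14, against 46, 47.1 and 50.3 in CC. Both were highest in CP_0, low at day 7 and between these levels at day 14, with no overlap of the 3 days in normalized RPM, although in RPM the miR-379 libraries of the 3 days overlapped. In normalized RPM the CC libraries were below those of CP_7 for miR-379 and above them for miR-411a, whereas in RPM miR-411a was at 25.7, 28.2 and 32.7 in CC and at 29.9, 36.8 and 44.5 in CP_7, so its direction depends on the scale. CC and CP_7 were not tested against each other. Unlike miR-127 and miR-370, neither was raised in CP_7 replicate 1, in which both had the lowest normalized RPM of the CP_7 libraries.

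**Figure D2:**
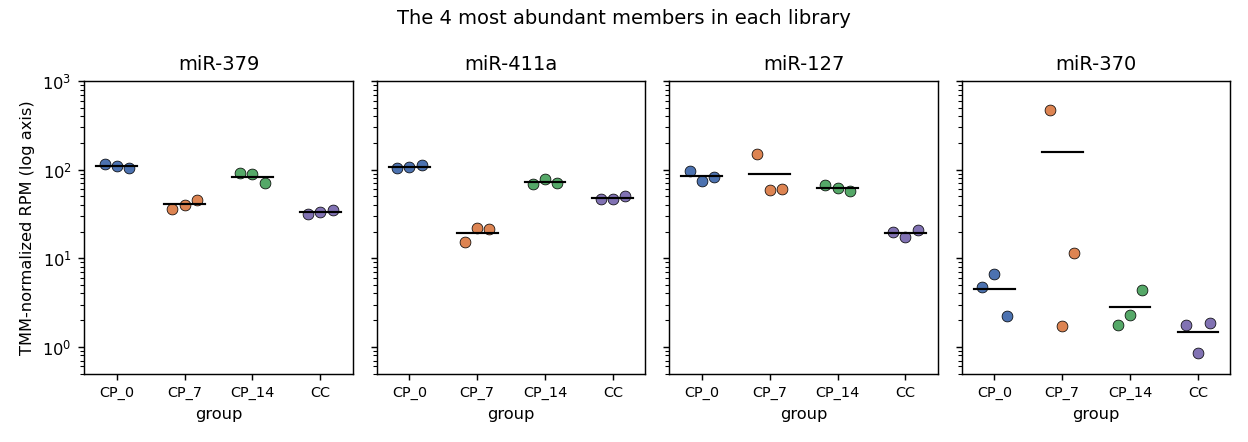
TMM-normalized RPM (log axis) of miR-379, miR-411a, miR-127 and miR-370 in each library (points, in the order of replicates 1 to 3) with the group mean (line). In CP_7, miR-379 (36.1 to 45.2) and miR-411a (15.1 to 21.9) lie below CP_0 and CP_14, while miR-127 (151) and miR-370 (466) are high in replicate 1 alone.

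The other abundant members of the row come from its part nearer to miR-410 and were rarer than miR-379 and miR-411a in every CP_0 library. For miR-381 the normalized RPM values were 5.07, 7.21 and 7.39 in CP_0, 49.9, 1.73 and 8.86 in CP_7, 2.10, 1.29 and 5.81 in CP_14, compared with 4.18, 3.44 and 2.78 in CC. For miR-409b they were 9.06, 10.4 and 6.10 in CP_0, 23.6, 6.33 and 5.32 in CP_7, 8.76, 5.49 and 6.92 in CP_14, against 2.09, 4.13 and 3.39 in CC. CP_7 replicate 1 was the highest library for both. With miR-382 they were 8.33, 6.63 and 4.82 in CP_0, 17.1, 9.20 and 9.75 in CP_7, 7.01, 6.46 and 6.09 in CP_14, compared with 2.79, 1.89 and 2.62 in CC, so that all CP_7 libraries were above and all CC libraries below the rest. The CP_7 values rest on 26, 16 and 11 reads. In the limma test described below, miR-382 was not called in CP_7 against CP_0 (log2 fold change 0.82, adjusted p = 0.0958) or CP_14 against CP_7 (-0.84, adjusted p = 0.0701). It was called in both with library size only and with all 12 libraries in one fit. Of the 15 members with at least 10 reads in a CP_7 library, 11 had their highest normalized RPM in replicate 1, 3 in replicate 2 and 1 in replicate 3, and by RPM these numbers were 12, 1 and 2. The same count was not made over all listed miRNAs, so these numbers cannot be read as particular to the cluster.

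The comparison of CP_7 with CP_0 asks what changed over the earlier week of chondrogenic induction. The most abundant members of the miR-379 row fell, and 5 rare ones were called higher. The filter needs about 4.99 RPM in 3 libraries here, and all 5 reached that level in CP_7 only, so a rare member could be tested only where it was high in a group. In the limma test with Benjamini-Hochberg adjustment over all miRNAs tested, in which a miRNA is called at an adjusted p below 0.05, miR-411a changed by a log2 fold change of -2.39 (SE 0.17, adjusted p = 2.26e-05) and miR-379 by -1.37 (SE 0.15, adjusted p = 0.000195). Fold changes are on the log2(normalized RPM + 1) scale, which understates those of low miRNAs. Both calls held without CP_7 replicate 1, at -2.45 and -1.53. With library size only, miR-411a kept its call at -1.34, whereas miR-379 was at -0.31 (adjusted p = 0.163). By contrast, miR-127 was at 0.01 (adjusted p = 0.994) with all libraries, at -0.67 (adjusted p = 0.0202) without CP_7 replicate 1 and at 1.07 (adjusted p = 0.0443) with library size only, so no direction can be given for it. The estimate for miR-370 was 2.34 (SE 1.75, adjusted p = 0.288) and dropped to 0.00 without that library. Among the fits with a result for miR-370 here, which leave out DESeq2, only edgeR quasi-likelihood called it (5.24, adjusted p = 0.0467).

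Among the rare members, miR-543 had 52, 6 and 10 reads in CP_7 and 0, 0 and 4 in CP_0, and miR-656, whose hairpin lies beyond that of miR-410, had 7 reads in each CP_7 library and 1, 2 and 0 in CP_0. The CP_7 libraries were above the CP_0 libraries in both cases, although CP_0 was sequenced more deeply. The log2 fold change was 3.44 (SE 0.85, adjusted p = 0.00939) for miR-543 and 2.44 (SE 0.43, adjusted p = 0.00195) for miR-656, and without CP_7 replicate 1 it was 2.37 and 2.26, both still called. In the same comparison the fitted change was 2.07 (SE 0.54, adjusted p = 0.0113, and 1.45 without CP_7 replicate 1) for miR-411c-5p, 1.97 (SE 0.73, adjusted p = 0.0490) for miR-323 and 1.22 (SE 0.42, adjusted p = 0.0359) for miR-494. All 5 passed the filter through CP_7 alone, so their p-values do not show that rare members in general rose. The calls of miR-323 and miR-494 were lost in many refits, although the log2 fold change stayed positive, at 1.14 to 2.62 for miR-323 and 0.76 to 1.54 for miR-494 without each library in turn. For miR-323, which had 35, 20 and 3 reads in CP_7, the adjusted p was 0.213 without CP_7 replicate 1, 0.190 without CP_7 replicate 2, and 0.126, 0.140 and 0.0562 without CP_0 replicates 1, 2 and 3. For miR-494, with 15, 23 and 5 reads in CP_7, it was 0.190 and 0.230 without CP_7 replicates 1 and 2, and 0.111, 0.0891 and 0.0822 without CP_0 replicates 1, 2 and 3. Both calls were also lost with RLE or upper-quartile factors and without the filter, and that of miR-323 with a pseudocount of 5.

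In this comparison, 16 of the 46 members could be tested and 7 were called, 5 higher and 2 lower in CP_7, while 30 were not tested. Of all 246 miRNAs tested 63.8% were called, 35.8% higher and 28% lower, so calls among the members were not more frequent than in general. The median log2 fold change was 0.87 over the tested members and 0.07 over all miRNAs tested, 0.33 and -0.12 without CP_7 replicate 1, and 0.43 and 0.01 without the filter. Over the 9 tested members that reached the filter level in both groups it was 0.01, and of these 9 members 0 were called higher and 2 lower. With library size only, 9 members were called higher and 1 lower, against 152 higher and 20 lower among all 246 miRNAs tested. The median of all miRNAs moved by 1.05 in that setting. Without any 1 of the CP_0 libraries 12 members were tested and 3 called, and without CP_0 replicate 3 and CP_7 replicate 1 together, an alternative chosen after seeing the data, 4 were called and miR-323, miR-411c-5p and miR-494 were not.

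From day 7 to day 14, miR-379 and miR-411a rose and 6 rare members were called lower. These 6 reached the filter level, about 5.23 RPM, in CP_7 only, and no tested member reached it in CP_14 only. Their p-values therefore do not show that rare members in general fell. This comparison shares the CP_7 libraries with the one before, so the values of each are given side by side only. On the log2 scale miR-411a rose by 1.8 (SE 0.19, adjusted p = 0.000202) and miR-379 by 0.94 (SE 0.17, adjusted p = 0.00294), and without CP_7 replicate 1 by 1.71 and 0.94. With library size only, miR-379 was at 0.09 (adjusted p = 0.708) while miR-411a was still called. Lower at day 14 were miR-543 (-2.99, SE 0.79, adjusted p = 0.0158, and -2.07 without CP_7 replicate 1), miR-494 (-2.35, SE 0.52, adjusted p = 0.00759), miR-411c-5p (-2.12, SE 0.45, adjusted p = 0.00663), miR-656 (-1.76, SE 0.34, adjusted p = 0.00431), miR-380-3p (-1.61, SE 0.41, adjusted p = 0.0142) and miR-369-3p (-1.38, SE 0.36, adjusted p = 0.0142). Their reads were few. The CP_14 libraries had 5, 2 and 7 reads of miR-369-3p and 5, 1 and 3 of miR-380-3p, against 6, 9 and 5 and 5, 6 and 6 in the shallower CP_7 libraries. The calls of miR-494, miR-411c-5p and miR-656 held without each library in turn wherever these members could be tested. That of miR-543 was lost without CP_14 replicate 1 (adjusted p = 0.0577) or replicate 2 (0.0668), that of miR-369-3p without CP_7 replicate 2 (0.0673) with DESeq2 (0.0652) and without the filter, and that of miR-380-3p without CP_7 replicate 3 (0.0524).

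Here 14 members were tested and 8 called, 2 higher and 6 lower in CP_14, with 32 not tested. Of all 246 miRNAs tested 52.8% were called, 24.4% higher and 28.5% lower. Medians were -1.49 for the tested members and -0.01 for all miRNAs tested, -0.61 and 0.04 without CP_7 replicate 1, and -0.47 and 0.10 without the filter. For the 7 tested members at the filter level in both groups the median was -0.48, and of these 7 members 2 were called higher and 0 lower. With library size only, 1 member was called higher and 10 lower, against 26 higher and 138 lower among all 246 miRNAs tested. The median of all miRNAs moved by -0.83 in that setting. Leaving out CP_14 replicate 1, 2 or 3 reduced the calls to 3, 3 and 4, with 12 members tested each time.

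Over the whole induction, CP_14 against CP_0, miR-411a, miR-127 and miR-379 ended slightly below their starting level. The log2 fold change was -0.54 (SE 0.09, adjusted p = 0.00249) for miR-411a, -0.42 (SE 0.13, adjusted p = 0.0350) for miR-127 and -0.38 (SE 0.12, adjusted p = 0.0374) for miR-379. Of these, the call of miR-411a held in every alternative fit tried, although its change was under the 2-fold threshold. The calls of miR-127 and miR-379 were lost with library size only (-0.26, adjusted p = 0.240, and -0.22, adjusted p = 0.284) and without CP_0 replicate 1 (adjusted p = 0.108 and 0.122). That of miR-127 was also lost without CP_14 replicate 2 (0.0567) and with all 12 libraries in one fit (0.254), and that of miR-379 without CP_0 replicate 2 (0.0902) and without the filter. The rarer miR-154c, with 25, 21 and 20 reads in CP_0 and 10, 6 and 3 in CP_14, changed by -1.44 (SE 0.38, adjusted p = 0.0169), and its adjusted p was 0.0680 without CP_0 replicate 1. These 4 calls, all lower, came from 9 tested members, and 37 members were not tested. The background was 46% called among 250 miRNAs, 24.8% higher and 21.2% lower. Tested members had a median of -0.49, against 0.01 for all miRNAs tested, and without the filter these were -0.12 and 0.03. Without CP_0 replicate 1 only miR-411a was called. With library size only 2 members were called, both lower, against 76 higher and 33 lower among all 250 miRNAs tested.

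Chondrocytes stood below the cells induced for 14 days in most members that could be tested. Against CP_14, miR-127 was lower by a log2 fold change of -1.63 (SE 0.14, adjusted p = 4.59e-06), miR-379 by -1.28 (SE 0.13, adjusted p = 1.73e-05), miR-382 by -1.08 (SE 0.21, adjusted p = 0.00110) and miR-411a by -0.60 (SE 0.11, adjusted p = 0.000933). These 4 calls held in every alternative fit, although the change of miR-411a was under the 2-fold threshold. Among rarer members miR-323 (-0.99, SE 0.31, adjusted p = 0.0153), miR-409b (-0.91, SE 0.26, adjusted p = 0.00994) and miR-495 (-0.71, SE 0.28, adjusted p = 0.0419) were lower as well. The call of miR-495 was lost in 8 of the 13 alternative fits that gave a result for it. These were the fits without CP_14 replicate 1 (0.0579) or replicate 2 (0.120), edgeR quasi-likelihood (0.0579), DESeq2 (0.143), all 12 libraries in one fit (0.135), upper-quartile factors, no filter and a pseudocount of 5. In the other direction, miR-154c was higher in CC (0.86, SE 0.30, adjusted p = 0.0253), with 25, 28 and 29 reads there. This call was lost with library size only (0.37, adjusted p = 0.329) and without CC replicate 2 (0.0684), CC replicate 3 (0.0813) or CP_14 replicate 3 (0.0640), and also with DESeq2, without the filter and with all 12 libraries in one fit. In the main fit no call was made for miR-370, miR-381, miR-409a and miR-493. With library size only, miR-370 (-0.95, adjusted p = 0.0121), miR-493 (-0.87, adjusted p = 0.0391) and miR-409a were called lower. Without CP_14 replicate 3, miR-381 was called higher in CC (0.65, adjusted p = 0.0327). Of these 4, miR-409a, at -0.49 (SE 0.26, adjusted p = 0.107), was tested in no other comparison.

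For this pair 12 members were tested and 8 called, 1 higher and 7 lower in CC, and 34 were not tested. Calls were common in general, at 74.6% of 276 miRNAs, 37.7% higher and 37% lower. The median log2 fold change was -0.65 over the tested members, of which miR-323, miR-370, miR-409a and miR-495 reached the filter level in CP_14 only, and 0.09 over all miRNAs tested. Without the filter it was -0.15 and -0.05. For the 8 members at the filter level in both groups the median was -0.75, and 1 was called higher and 5 lower. The p-values of the 4 that reached it in CP_14 only do not show that rare members in general were lower. With library size only, 0 of the tested members were called higher and 10 lower, against 40 higher and 163 lower among all 276 miRNAs tested. The median of all miRNAs moved by -0.63 in that setting. Without CC replicate 2 or CC replicate 3, 7 members were tested and 5 called, and with all 12 libraries in one fit 5 were called, with miR-323 (adjusted p = 0.126) and miR-409b (0.0932) among those lost.

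Against CP_0, the uninduced progenitors, all 11 members that could be tested were lower in CC. Of these, miR-370, miR-494 and miR-654 reached the filter level, about 1.45 RPM, in CP_0 only, and the other 8 reached it in libraries of both groups. Here miR-127 was lower by a log2 fold change of -2.18 (SE 0.13, adjusted p = 2.60e-05), miR-379 by -1.8 (SE 0.08, adjusted p = 1.17e-05), miR-493 by -1.33 (SE 0.21, adjusted p = 0.00194), miR-411a by -1.27 (SE 0.08, adjusted p = 4.21e-05) and miR-382 by -1.14 (SE 0.22, adjusted p = 0.00452). These 5 calls held in every alternative fit, and the 6 libraries did not overlap in normalized RPM or in RPM. Lower too were miR-409b (-1.21, SE 0.26, adjusted p = 0.00737), miR-370 (-1.07, SE 0.33, adjusted p = 0.0312), miR-654 (-0.85, SE 0.18, adjusted p = 0.00682), miR-381 (-0.81, SE 0.21, adjusted p = 0.0153), miR-154c (-0.62, SE 0.18, adjusted p = 0.0245) and miR-494 (-0.56, SE 0.17, adjusted p = 0.0316). With miR-370 the reads were 13, 23 and 7 in CP_0 and 10, 5 and 12 in CC, and with miR-654 they were 7, 9 and 6 in CP_0 and 5, 4 and 5 in CC, in deeper libraries.

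Several of these smaller differences lost their call when a library was left out, while the log2 fold change stayed negative, at -0.69 to -0.46 for miR-154c, -1.38 to -0.79 for miR-370, -0.94 to -0.71 for miR-381 and -0.62 to -0.50 for miR-494. The adjusted p of miR-370 was 0.0650, 0.108 and 0.0630 without CC replicates 1, 2 and 3, and 0.0844 and 0.0823 without CP_0 replicates 1 and 2. For miR-381 it was 0.0518 and 0.0642 without CC replicates 2 and 3. For miR-154c it was 0.0815, 0.0608 and 0.0787 without CC replicates 1, 2 and 3, and 0.0842 without CP_0 replicate 1. The call of miR-494 was lost without any 1 of the 6 libraries, at adjusted p values from 0.0508 to 0.138, and with upper-quartile factors. All 12 libraries in one fit ended the calls of these 4 members, DESeq2 those of miR-154c, miR-381 and miR-494, and leaving out the filter those of miR-154c, miR-370 and miR-494. All 11 members tested were called lower, and 35 were not tested, against a background of 55.8% called among 260 miRNAs, 30% higher and 25.8% lower. Their median was -1.14, and that of all miRNAs tested was 0.05. Without the filter these were -0.33 and -0.03. For the 8 members at the filter level in both groups the median was -1.24, and 8 were called lower. The 3 others were tested only because they were high enough in CP_0, so their p-values do not show that rare members in general were lower. With library size only, all 11 tested members were again called lower, against 30 higher and 112 lower among all 260 miRNAs tested. The median of all miRNAs moved by -0.38 in that setting. Without CC replicates 1, 2 and 3 there were 7, 6 and 6 calls, and with all 12 libraries in one fit there were 5, with miR-409b (adjusted p = 0.0547) among those lost. DESeq2 gave 7 calls, and miR-654 was at an adjusted p of 0.0858 there. Taking the comparisons of CC with CP_14 and with CP_0 side by side, which share the CC libraries, miR-127, miR-379, miR-382, miR-409b and miR-411a were called lower in both.

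Ratios between members of the same library do not depend on how libraries are scaled. The ratio of miR-411a to miR-379, a pair from adjacent hairpins, was 0.899, 0.979 and 1.06 in CP_0, 0.418, 0.543 and 0.471 in CP_7, 0.754, 0.883 and 1.01 in CP_14, against 1.44, 1.42 and 1.42 in CC. It was lowest in the 3 CP_7 libraries and highest in the 3 CC libraries, and the CP_0 and CP_14 libraries overlapped. Of the reads on both, pooled over the 3 libraries of a group, miR-411a had 32.6% in CP_7 (85 of 261 reads, exact 95% interval 26.9% to 38.6%) and 58.8% in CC (864 of 1469 reads, 56.2% to 61.3%). The pooled intervals leave out the spread between libraries. By the ratios of each library, these neighbours changed unequally, both from CP_0 to CP_7 and in CC. The pair was picked after its values were seen, and no test was run on the ratio.

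Relative to miR-379, miR-127 was at 0.846, 0.682 and 0.791 in CP_0, 4.18, 1.46 and 1.35 in CP_7, 0.738, 0.703 and 0.808 in CP_14, compared with 0.617, 0.523 and 0.594 in CC. All CP_7 libraries were above and all CC libraries below the others. By side of the locus, the names of the miR-379 row held 72.1% ± 2.16 (SD, n = 3) of the cluster's reads in CP_0, 53.9% ± 21.5 in CP_7, 73.4% ± 0.418 in CP_14, against 81.1% ± 1.97 in CC. In CP_7 the libraries were at 29.3%, 68.6% and 63.9%, and the mean was 66.2% without replicate 1. All CC libraries were thus above, and all CP_7 libraries below, the range of 69.8% to 74.0% seen in CP_0 and CP_14.

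**Figure D3:**
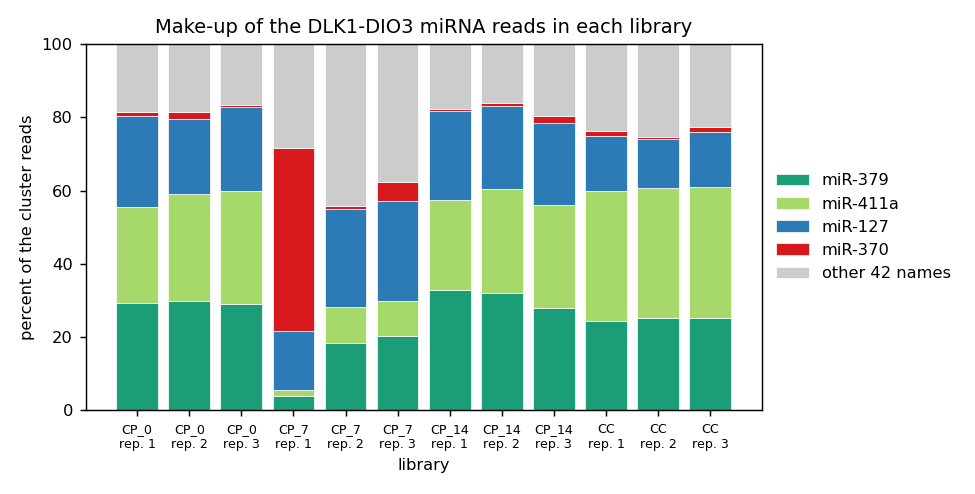
Percent of the DLK1-DIO3 reads held by miR-379, miR-411a, miR-127, miR-370 and the other 42 names (stacked bars) in each of the 12 libraries. In CP_7 replicate 1, miR-370 takes 49.9% of the cluster, and miR-411a takes 9.95% or less in each CP_7 library but at least 35.3% in each CC library.

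Where both arms of a hairpin were listed, 1 arm was usually rare. Over all 12 libraries miR-369-5p had 42 reads and miR-369-3p 70, miR-380-5p had 2 and miR-380-3p 60, and miR-411c-5p had 69 and miR-411c-3p 9. In none of the 3 pairs did both arms reach 10 reads in a library, so no arm ratio is given. The names miR-299 and miR-299-2 had identical values in every library, 3 reads in all, and cannot be told apart. Of 6 further numbers of the locus outside the rule (miR-300, miR-337, miR-668, miR-770, miR-889 and miR-1197) only miR-1197 was analysed, with at most 2 reads in a library.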

How the data were processed

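Small RNA libraries of 12 samples were prepared with a NEBNext kit and sequenced on an Illumina NovaSeq instrument. The submitters' processing notes name CASAVA, bcl2fastq 1.8.4 and Bowtie. Which miRNA database version was used is not given in the sources used here, and the authors deposited RPM values for each library, under a header that reads TPM. Each library summed to 1000000, and 100% of values were whole multiples of 1 read within 0.01 read, so reads were recovered.

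Each pair of groups except CC with CP_7 was fitted with limma 3.58.1 (intensity trend, two-sided) on log2(TMM-normalized RPM + 1) in R 4.3.3. The fits covered all miRNAs that passed filterByExpr of edgeR 4.0.16 (minimum count 10, minimum total 15), with Benjamini-Hochberg adjustment over all of them and a threshold of 0.05. Printed normalized levels use TMM factors of all 12 libraries. The fit was tested on simulated data. Count tests on the recovered reads with edgeR's quasi-likelihood called 142 miRNAs for CC against CP_0, 205 for CC against CP_14, 112 for CP_14 against CP_0, 134 for CP_14 against CP_7 and 160 for CP_7 against CP_0. DESeq2 1.42.0, other factors, no filter, pseudocounts of 0.5 and 5, one fit of all 12 libraries, a replicate block, a 2-fold threshold and leaving out each library were alternatives. SciPy 1.17.1 gave the exact intervals.

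Named members were the 8 with the highest mean RPM, every called member, and pairs of arms with at least 10 reads each in some library. Marker lists were cartilage, blood, muscle, epithelium, endothelium and neurons. The members and lists were chosen with earlier results of these data known.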

Additional observations from a re-analysis of the deposited data

How the results depend on the processing

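Of 587 refits of called members with an adjusted p for the member, 497 kept direction and call, 90 kept the direction and lost the call, and 0 reversed. Refits in which a member failed the filter or had no adjusted p were not counted, here and below. For CP_7 against CP_0, miR-411c-5p and miR-656 thus had 14 counted refits each, against 17 for miR-411a. None of the 14 left out only a CP_0 library. Of 303 refits of the 8 most abundant members where uncalled, 18 passed the threshold in the same direction and 1 in the opposite one (miR-127, CP_7 against CP_0, -0.67 without CP_7 replicate 1, with a range of -0.67 to 0.12 over the left-out libraries). The cause was not tested where none is given.

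Members called in CP_7 against CP_0 numbered 7, from 3 to 8 without each library, and 4 without CP_0 replicate 3 and CP_7 replicate 1 together, chosen after seeing the data. RLE and upper-quartile factors each gave 3 higher and 2 lower. Members called in CP_14 against CP_7 numbered 8, and 3 to 11 without each library. In CC against CP_14 they numbered 8, and 5 to 9 without each library, 5 with all 12 libraries in one fit and 3 with at least 2-fold. In CP_14 against CP_0 they numbered 4, and 1 to 5 without each library, 2 with library size only and 1 with at least 2-fold. In CC against CP_0 they numbered 11, and 6 to 10 without each library, 7 with DESeq2, 5 with all 12 libraries in one fit and 7 with at least 2-fold.

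Same-numbered libraries did not deviate together (correlations from -0.29 to 0.13). With 3 libraries in each group this cannot exclude that the numbers pair them. With the replicate block, calls in CC against CP_0 numbered 7 (miR-154c, miR-370, miR-381 and miR-494 were lost), those in CP_7 against CP_0 5 (miR-323 and miR-494 were lost), those in CP_14 against CP_7 9, those in CP_14 against CP_0 4 and those in CC against CP_14 8.

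The log2 ratio of the summed level moved for CP_7 against CP_0 from 0.30 to 1.45 with library size only (-0.75 to 0.63 without each library, -0.30 without miR-370), for CP_14 against CP_7 from -0.77 to -1.74 (-1.11 to 0.28 without each library, -0.17 without miR-370), for CC against CP_14 from -1.0 to -1.72, to -1.12 with RLE factors and to -0.66 after miR-21-5p was dropped from the total, for CP_14 against CP_0 from -0.47 to -0.29 and, without miR-21-5p, -0.68, and for CC against CP_0 from -1.48 to -2.02, to -1.61 with RLE factors and, without miR-21-5p, -1.34. Without miR-21-5p the summed share was 826 RPM in CP_0, 1174 RPM in CP_7, 516 RPM in CP_14 and 326 RPM in CC. Upper-quartile factors moved the median of all miRNAs by -0.32 in CP_7 against CP_0, 0.14 in CP_14 against CP_7, 0.16 in CC against CP_14 and -0.25 in CP_14 against CP_0. Depth was lowest in CP_7, where 1 read was worth 0.969 to 1.85 RPM.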
